A study of Mus musculus with 85 samples.

Results

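The transcript profile of mouse 2-cell embryos cultured without pyruvate was followed over the 3 hours from 52 to 55 h after the hCG injection that times ovulation. The 8 libraries, of 85 in the series, were chosen by their titles: 4 were labelled as the latest 2-cell embryos without pyruvate (55 h) and 4 as the very late ones (52 h). All were of wild-type embryos of the B6C3F1/J strain in KSOM culture medium with 5 mM lactate and 0.2 mM glucose, and no pyruvate was present in either group. Smart-seq2, which copies polyadenylated RNA into cDNA and amplifies it, was used for every library. Embryos in standard KSOM, which also holds 0.2 mM pyruvate, served to show the ordinary course: Early 2-cell (34 h, 3 libraries), Mid 2-cell (42 h, 4), Late 2-cell (48 h, 3), Very late 2-cell (52 h, 3), Early 4-cell (55 h, 4) and Late 4-cell (62 h, 4). Embryos without pyruvate at 42 h (4 libraries) and 48 h (5) gave the earlier levels. How many embryos or cultures a library stands for is not stated, so every p-value measures the spread between libraries, which may be technical. How embryos were picked at 55 h, when standard embryos had 4 cells, is not stated either.

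Mouse embryos before compaction take up pyruvate and lactate in preference to glucose. During the 2-cell stage the embryo hands control from RNA stored in the oocyte, which is degraded, to RNA made from its own genome. That handover includes a short burst of 2-cell genes such as the Zscan4 and Obox families, and then a lasting rise of genes for ribosomes, protein turnover and energy metabolism, among which are targets of the transcription factor MYC.

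Levels are in CPM, the counts of a gene scaled to a fixed library total, so they are shares of a library's RNA and not amounts per embryo, and fewer cells with a transcript cannot be told apart from less of it in each cell. Changes are differences of log2(CPM + 1) between the 55 h and the 52 h group from limma, fitted across 20737 genes, and a gene is called at a Benjamini-Hochberg adjusted p below 0.05. The spread behind each SE and adjusted p was estimated over 34 libraries of both media at 34 to 55 h. It was not taken from the 8 libraries alone. That fit called 12409 genes, and a fit of only the 8 libraries called 9219 of 18441 tested. Depth lay between 10.2 and 18.7 M reads at 55 h and between 10.4 and 19.6 M reads at 52 h. Libraries of 1 group correlated across genes at 0.926 to 0.957 at 55 h and at 0.967 to 0.972 at 52 h. The 100 most abundant genes took 20.7% to 29.1% of the CPM at 55 h and 29.5% to 33.2% at 52 h. Over all genes tested, 59.8% were called, 33.7% higher and 26.1% lower at 55 h, and the median log2 change was 0.13. For 41.4% of genes the 4 libraries at 55 h did not overlap the 4 at 52 h (22.8% above and 18.6% below). With median-ratio scaling of the libraries that median was 0.0065, and 49.2% of the called genes were higher instead of 56.4%.

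The 10 markers of 2-cell embryos were all present, with a summed level of 1515 to 2211 CPM at 55 h and 1789.6 to 2003 CPM at 52 h. Obox6 made up most of that sum at 55 h (1145 ± 157 CPM at 55 h and 487 ± 75.7 CPM at 52 h), Padi6 was also higher in mean, and the means of the other 8 were lower at 55 h. Of 8 cumulus and granulosa markers, Ptx3 and Fshr were at 0 in every 55 h library, and Fshr and Amh in every 52 h library. Their summed level of 71.1 to 97.8 CPM at 55 h, against 17.8 to 24.7 CPM at 52 h, came almost wholly from Amhr2. Amhr2, the receptor of anti-Müllerian hormone, averaged 77.6 ± 12.9 CPM at 55 h and 15.4 ± 2.79 CPM at 52 h and 85.5 ± 4.24 CPM in Very late 2-cell embryos. Of 5 sperm markers, none averaged above 1 CPM at 55 h and Prm2 alone did at 52 h. Of 6 blood markers 4 were in the deposited table, which lacked the beta globins Hbb-bs and Hbb-bt. Ptprc was at or near 0. The alpha globins Hba-a1 and Hba-a2, a near-identical pair, made up most of the blood marker sum. That sum was 61.9 to 92.0 CPM at 55 h and 17.6 to 28.5 CPM at 52 h. In standard medium it was 54.3 to 73.1 CPM in Very late 2-cell and 8.60 to 24.6 CPM in Early 4-cell embryos. The part of other cells in the changes below was not tested.

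Every 55 h library lay farther along the ordinary course of development than any 52 h library. On a line over 12105 genes from the mean of Early 2-cell embryos (0) to that of Late 4-cell embryos (1), the 55 h libraries lay at 0.762, 0.770, 0.688 and 0.720, against 0.414, 0.415, 0.425 and 0.424 for the 52 h libraries. The groups did not overlap and differed by 0.316 (0.735 ± 0.038 against 0.419 ± 0.0059; SD, n = 4 each; exact two-sided permutation test, p = 0.029, the smallest that 4 against 4 can give). Embryos without pyruvate at 48 h had lain between 0.224 and 0.326. The spread among the 55 h libraries was wider than among the 52 h libraries, with libraries 1 and 2 ahead of 3 and 4. In standard medium, Late 2-cell embryos lay at 0.615 to 0.618, Very late 2-cell embryos at 0.771 to 0.780 and Early 4-cell embryos at 0.905 to 0.925. Across genes, all 4 of the 55 h libraries correlated best with the mean of Very late 2-cell embryos (0.901 to 0.957) and all 4 of the 52 h libraries with that of Mid 2-cell embryos (0.927 to 0.934).

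**Figure D1:**
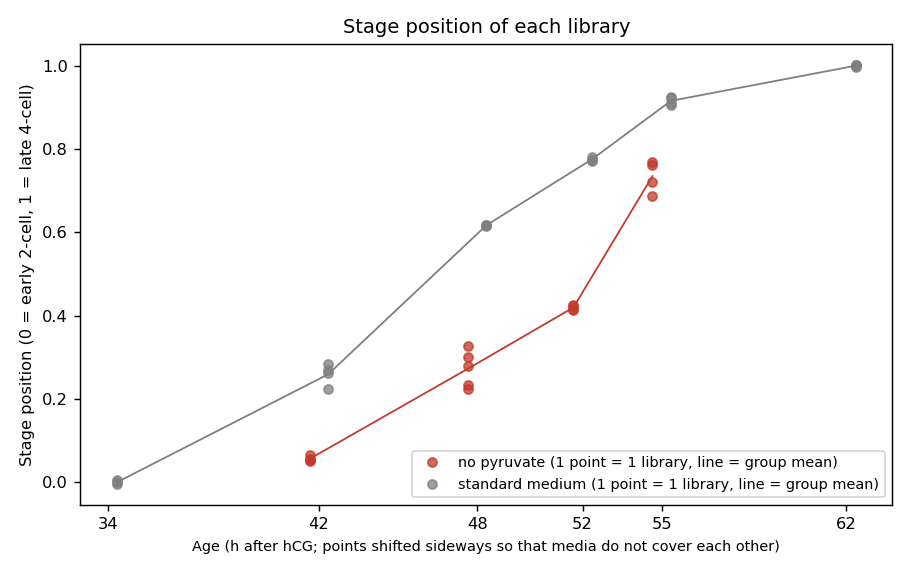
Stage position of each library (vertical axis, 0 for Early 2-cell and 1 for Late 4-cell embryos) by age in hours after hCG (horizontal axis), without pyruvate in red and in standard medium in grey. The 4 points without pyruvate at 55 h lie between 0.688 and 0.770, above all points at 52 h (0.414 to 0.425) and below the standard points of the same age.

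The largest rises were mostly in genes with low levels at 52 h. Dusp3, a phosphatase that acts on MAP kinases (chromosome 11, chr11:101971143-101987013, minus strand, GRCm38), stood at 134, 16.5, 291 and 98.5 CPM at 55 h, against 3.17, 0.358, 2.59 and 3.92 CPM at 52 h. All 55 h libraries were above all 52 h libraries, but library 2 was far below the other three (log2 change 4.85 ± 0.47 SE, adjusted p = 1.6e-10). Map7d2, of a family of microtubule-binding proteins, stood at 372, 194, 209 and 136 CPM at 55 h, against 10.3, 8.81, 9.82 and 8.04 CPM at 52 h (4.39 ± 0.25 SE, adjusted p = 4.5e-16). Nt5c, a nucleotidase that removes phosphate from deoxynucleotides, averaged 74.4 ± 22.4 CPM at 55 h and 3.83 ± 2.17 CPM at 52 h (SD, n = 4 each, as for all means below; log2 change 4.02). Nipal1, a magnesium transporter, averaged 155 ± 32.3 CPM at 55 h and 12.9 ± 3.34 CPM at 52 h (3.50). Ttyh2, of the tweety family of membrane proteins, averaged 520.3 ± 233 CPM at 55 h and 46.5 ± 9.67 CPM at 52 h (3.39). Syngr1, a vesicle membrane protein, averaged 54.1 ± 8.71 CPM at 55 h and 5.09 ± 2.21 CPM at 52 h (3.24). Gins3 is a subunit of the helicase that opens DNA for replication, and Ccs delivers copper to superoxide dismutase. Gins3 averaged 92.2 ± 23.2 CPM at 55 h and 9.16 ± 3.14 CPM at 52 h (3.23), and Ccs averaged 54.1 ± 13.6 CPM at 55 h and 4.54 ± 1.43 CPM at 52 h (3.32). Among the other leading rises, Rflnb (refilin B), Inka1, Nt5c3b, Ppp1r16b and Smyd5 changed by 3.68, 3.28, 3.14, 3.13 and 3.07 on the log2 scale, in that order. In each of these the groups did not overlap, as the naming rule required; over all genes tested, 22.8% lay wholly higher and 18.6% wholly lower at 55 h.

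The deepest falls included 3 genes of the maternal oocyte list, Zbed3, Bcl2l10 and Rfpl4, and members of the Obox family. Iglc3, an immunoglobulin lambda constant segment (chr16:19065230-19065681, minus strand) with close copies beside it, so that its counts are uncertain, stood at 1.42, 1.32, 2.40 and 0.604 CPM at 55 h, against 83.4, 70.3, 52.6 and 77.9 CPM at 52 h (-4.92 ± 0.27 SE, adjusted p = 7.6e-17). Obox5, an oocyte homeobox gene of a family with near-identical members, stood at 97.5, 95.5, 136 and 149 CPM at 55 h, against 1913, 1967, 2239 and 1968 CPM at 52 h (-4.09 ± 0.20 SE, adjusted p = 4.1e-18). Zbed3, a maternal protein of the cell cortex, stood at 294, 325, 465 and 327 CPM at 55 h, against 7155, 6317, 4522 and 4993 CPM at 52 h (-4.02 ± 0.55 SE, adjusted p = 1.2e-07). Each of these was lower in all 55 h libraries than in any 52 h library. Bcl2l10, an oocyte relative of the apoptosis inhibitor Bcl2, averaged 73.5 ± 17.7 CPM at 55 h and 1018 ± 174 CPM at 52 h (-3.79). Oosp3, an oocyte-secreted protein, averaged 23.4 ± 0.827 CPM at 55 h and 471 ± 56.1 CPM at 52 h (-4.27). Rfpl4, an oocyte RING-finger protein, averaged 25.1 ± 9.21 CPM at 55 h and 445 ± 83.0 CPM at 52 h (-4.16). Med30, a subunit of the Mediator complex that links enhancers to RNA polymerase II, averaged 15.4 ± 1.51 CPM at 55 h and 246 ± 43.9 CPM at 52 h (-3.90). Itga9, an integrin subunit, averaged 27.9 ± 4.89 CPM at 55 h and 428 ± 3.96 CPM at 52 h (-3.91). The remaining leading falls, Lypd3, PATE14, Obox7, C87414, Psg17, Tac2 and Ifitm6, changed by -4.23, -3.98, -3.93, -3.92, -3.90, -3.87 and -3.82, in that order.

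**Figure D2:**
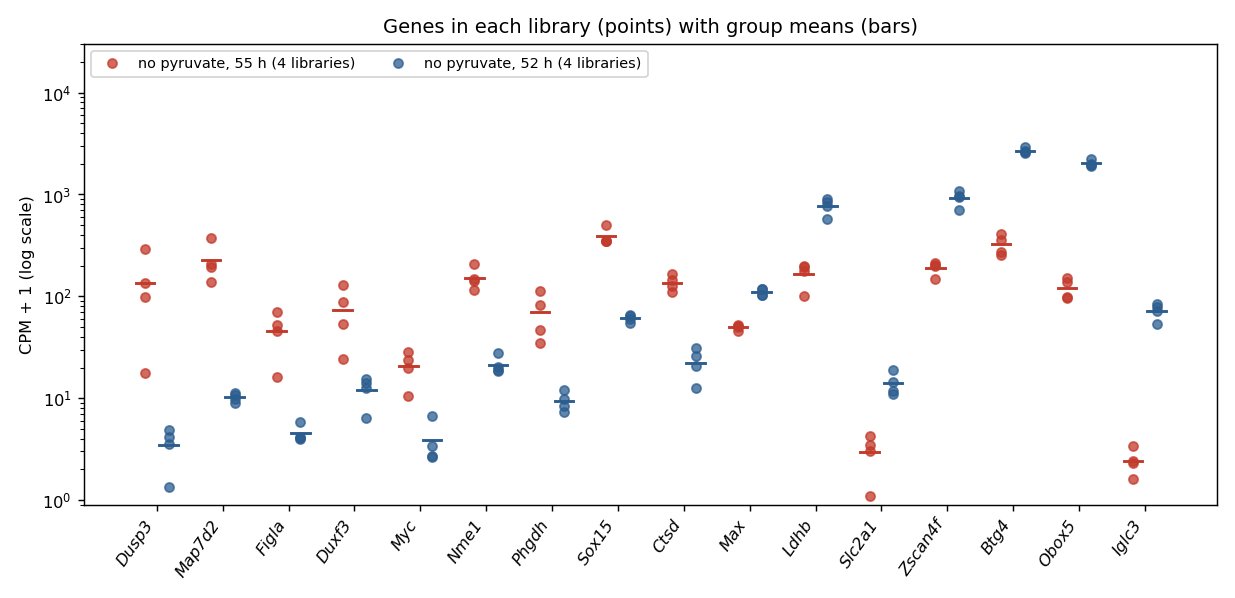
CPM + 1 on a log scale (vertical axis) for 16 genes named in the text (horizontal axis), with the 4 libraries at 55 h in red on the left and the 4 at 52 h in blue on the right of each gene. Points are libraries and bars are means; the colours do not overlap for any of the 16 genes, and Dusp3, Figla and Duxf3 have the widest spread at 55 h.

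Stored oocyte RNA had the largest share of falling members among the lists. Of 53 members tested, 3 rose, 42 fell and 8 did not pass the test, with a median log2 change of -1.36. Over all genes tested, 33.7% rose and 26.1% fell, and every list count below is to be read beside these shares. The summed level of the 53 was 20075, 20990.0, 25555 and 25154 CPM at 55 h, against 68371, 67259.6, 73242 and 69514 CPM at 52 h. The sums lay far apart, and among the 55 h libraries 3 and 4 kept the most. Btg4, which recruits the deadenylase that shortens maternal RNA tails (chr9:51060901-51119875, plus strand), stood at 272, 256, 358 and 406 CPM at 55 h, against 2529, 2615, 2949.6 and 2657 CPM at 52 h (-3.08 ± 0.15 SE, adjusted p = 2.2e-18). The egg-coat and oocyte growth factor genes moved unevenly. Bmp15, an oocyte growth factor, averaged 53.8 ± 13.5 CPM at 55 h and 703 ± 136 CPM at 52 h (-3.70), and its partner Gdf9 averaged 92.0 ± 28.8 CPM at 55 h and 193 ± 30.3 CPM at 52 h (-1.10). H1foo, the oocyte linker histone, averaged 68.0 ± 19.2 CPM at 55 h and 349.6 ± 81.9 CPM at 52 h (-2.35). Spin1, a histone-reading protein of the oocyte spindle, averaged 1836 ± 273 CPM at 55 h and 9786 ± 159 CPM at 52 h (-2.43). Tcl1, a co-activator of the kinase AKT, averaged 1285 ± 623 CPM at 55 h and 9532 ± 1434 CPM at 52 h (-2.99). Members with no called change included Dppa3, which protects the maternal genome from demethylation, at 3621 ± 437 CPM at 55 h and 4414 ± 306 CPM at 52 h, and Ccnb1, the mitotic cyclin B1, at 1922 ± 339 CPM at 55 h and 1612 ± 85.7 CPM at 52 h. 

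Among the 3 maternal members that rose were the oocyte regulators Figla and Sohlh1. Figla, which switches on the zona pellucida genes in growing oocytes, stood at 51.4, 15, 68.8 and 45.0 CPM at 55 h, against 3.07, 3.16, 2.96 and 4.88 CPM at 52 h (3.18 ± 0.30 SE, adjusted p = 7.7e-11). Sohlh1, a helix-loop-helix factor of early germ cells, stood at 20.0, 13.5, 26.6 and 13.6 CPM at 55 h, against 4.46, 4.02, 4.72 and 2.39 CPM at 52 h (1.96 ± 0.26 SE, adjusted p = 7.8e-08). In both genes all 55 h libraries lay above all 52 h libraries, and library 3 was the highest. Standard embryos of 34 to 62 h averaged between 0.0729 and 0.422 CPM for Figla and between 0 and 2.34 CPM for Sohlh1. The third was Zp3, an egg-coat gene (81.7 ± 33.5 CPM at 55 h and 53.4 ± 1.45 CPM at 52 h, 0.51), whose groups overlapped. Its call was lost with each of the 3 other scalings (0.32 to 0.37, adjusted p = 0.072 to 0.13), without 55 h library 1 (0.30, adjusted p = 0.12) and without 55 h library 2 (adjusted p = 0.071). That call was also lost with only the compared groups in the fit (adjusted p = 0.106) and with replicate number as a block (adjusted p = 0.093). The other egg-coat genes Zp1 and Zp2 fell (37.9 ± 3.16 CPM at 55 h and 62.1 ± 5.34 CPM at 52 h, -0.70, and 25.1 ± 10.7 CPM at 55 h and 60.4 ± 7.95 CPM at 52 h, -1.36).

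The machinery that removes maternal RNA moved in both directions. Of 38 members tested, 13 rose, 16 fell and 9 did not pass the test, and the median was -0.15. Within the CCR4-NOT deadenylase, Cnot7 and Cnot6l, which cut the tail, averaged 447 ± 121 CPM at 55 h and 1534 ± 308 CPM at 52 h (-1.80) and 60.5 ± 18.6 CPM at 55 h and 191 ± 24.4 CPM at 52 h (-1.70). By contrast Cnot10 and the scaffold Cnot1 rose (63.1 ± 10.8 CPM at 55 h and 23.9 ± 5.41 CPM at 52 h, 1.37, and 144 ± 29.3 CPM at 55 h and 78.4 ± 17.3 CPM at 52 h, 0.87). The decapping enzyme Dcp2 fell (92.5 ± 24.4 CPM at 55 h and 240.0 ± 14.4 CPM at 52 h, -1.41). Ythdf2, a reader of methylated adenosine that sends RNA to decay, rose (656 ± 305 CPM at 55 h and 229 ± 17.5 CPM at 52 h, 1.41) and its relative Ythdf3 fell (66.4 ± 15.1 CPM at 55 h and 186 ± 28.1 CPM at 52 h, -1.49). Pabpc1, the poly(A)-binding protein of somatic cells, averaged 198 ± 32.1 CPM at 55 h and 71.3 ± 9.33 CPM at 52 h (1.46).

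The burst genes of genome activation moved in both directions. Of 52 members tested, 17 rose, 16 fell and 19 did not pass the test, close to the shares over all genes, and the median was -0.031. Of 6 Zscan4 copies tested, all fell. Zscan4f (chr7:11397915-11402318, plus strand) stood at 202, 148, 212 and 197 CPM at 55 h, against 1069, 972, 941 and 698 CPM at 52 h (-2.27 ± 0.22 SE, adjusted p = 1.4e-10). Zscan4d, with the smallest change of the 6, averaged 149 ± 59.0 CPM at 55 h and 280.0 ± 31.7 CPM at 52 h (-0.99). These copies are nearly identical, so how reads were divided among them is uncertain. Obox1 fell (25.5 ± 3.36 CPM at 55 h and 293 ± 49.9 CPM at 52 h, -3.47) and Obox6 rose (1145 ± 157 CPM at 55 h and 487 ± 75.7 CPM at 52 h, 1.24). Zfp352, a zinc-finger gene of the burst, was not called (267 ± 128 CPM at 55 h and 351 ± 46.2 CPM at 52 h, -0.50, adjusted p = 0.14).

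Duxf3, the gene of the DUX factor that opens many burst genes (chr10:58229979-58232675, minus strand, in a cluster of repeated copies), rose. It stood at 52.7, 23.3, 128 and 87.4 CPM at 55 h, against 14.6, 13.2, 11.5 and 5.34 CPM at 52 h (2.43 ± 0.36 SE, adjusted p = 6.4e-07). All 55 h libraries were higher than all 52 h libraries, with a wide range between libraries 2 and 3. Standard embryos averaged 11.1 CPM at 34 h and no more than 3.52 CPM from 42 to 62 h. Other members of the activation list that rose included Pdxk, Dppa4, Dppa2 and Timd2. Pdxk, which activates vitamin B6, averaged 1065 ± 122 CPM at 55 h and 233 ± 41.2 CPM at 52 h (2.20). Dppa4 and Dppa2, a pair of chromatin-binding factors, averaged 416 ± 102 CPM at 55 h and 101 ± 16.2 CPM at 52 h (2.01) and 244 ± 63.6 CPM at 55 h and 122 ± 24.2 CPM at 52 h (0.98). Timd2, a ferritin receptor, averaged 3251 ± 406 CPM at 55 h and 809 ± 237 CPM at 52 h (2.05).

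**Figure D3:**
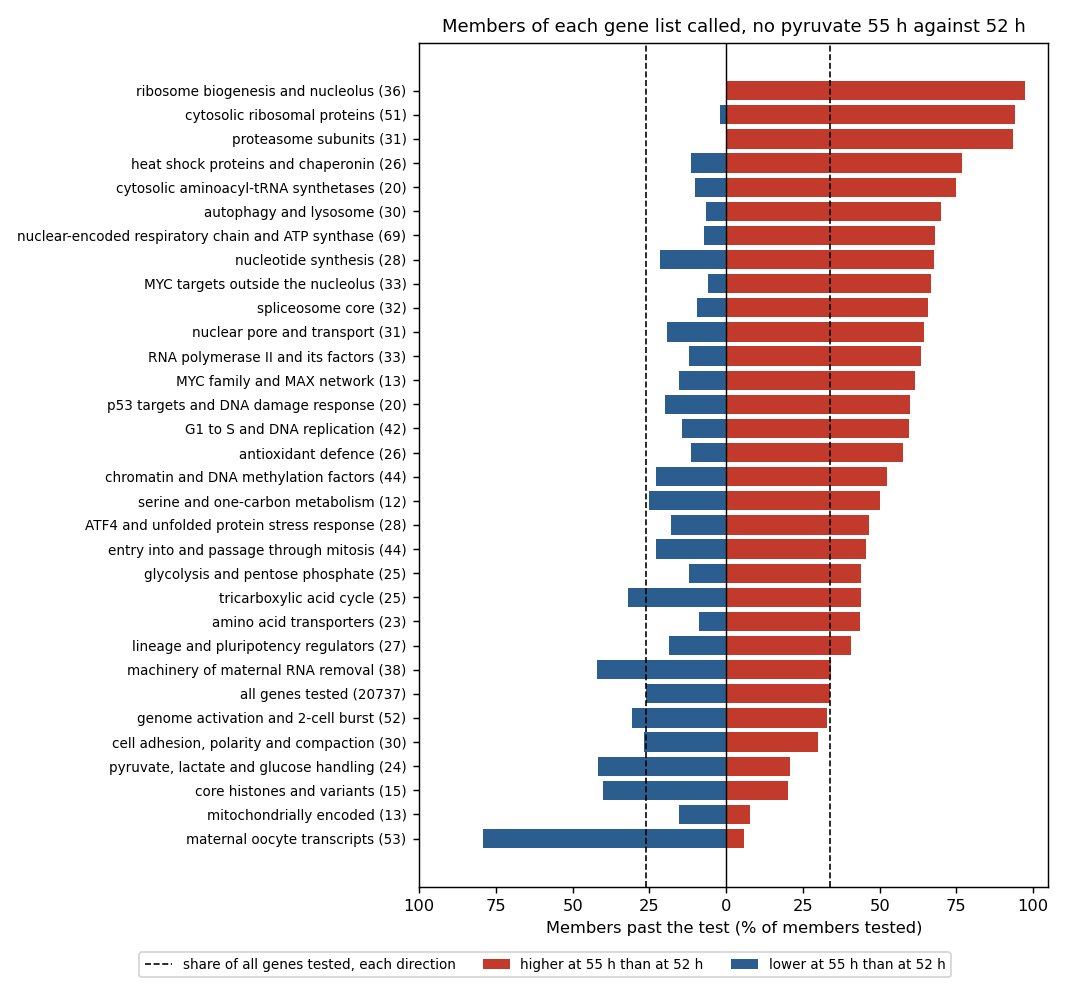
Share of the tested members of each gene list (rows, with the number tested) that were higher at 55 h (red, right) or lower at 55 h (blue, left) in percent, with dashed lines at the shares of all genes tested, 33.7% and 26.1%. Ribosome biogenesis, ribosomal proteins and proteasome subunits reach farthest right, and maternal oocyte transcripts farthest left.

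Myc and several tested members of its network rose. Myc, a factor that binds DNA as a pair with MAX and drives genes of growth (chr15:61985391-61990374, plus strand), stood at 22.6, 27.7, 18.8 and 9.40 CPM at 55 h, against 5.70, 2.39, 1.67 and 1.72 CPM at 52 h (2.43 ± 0.27 SE, adjusted p = 2.8e-09). No 55 h library was as low as any 52 h library, and library 4 was the lowest of its group. Of 13 members tested, 8 rose, 2 fell and 3 did not pass the test, with a median of 0.99. Over all genes tested, 33.7% rose and 26.1% fell. Under the other settings, and with 1 library left out, 6 to 8 members of the list rose. Mycn and Mycl, the other MYC proteins, averaged 6.66 ± 3.74 CPM at 55 h and 2.47 ± 1.79 CPM at 52 h (1.09) and 5.65 ± 2.63 CPM at 55 h and 2.23 ± 0.733 CPM at 52 h (0.99), both called. The groups overlapped for Mycn, and its call was lost without 52 h library 2 (adjusted p = 0.056) or 55 h library 3 (adjusted p = 0.061). That call was also lost with only the compared groups in the fit (adjusted p = 0.067) and with replicate number as a block (adjusted p = 0.051). Max, the shared partner, fell (49.0 ± 2.82 CPM at 55 h and 109 ± 9.03 CPM at 52 h, -1.14), and so did Mxd1, a repressor that competes for it (23.7 ± 11.8 CPM at 55 h and 49.1 ± 3.66 CPM at 52 h, -1.12). Mga, another repressor of the network, rose (184 ± 30.2 CPM at 55 h and 85.2 ± 11.1 CPM at 52 h, 1.10).

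Genes of ribosome production rose almost without exception. For ribosome biogenesis, of 36 members tested, 35 rose and 1 did not pass the test, with a median of 1.38 and a summed level of 8319, 8943, 6172 and 7577 CPM at 55 h, against 3004, 2899.7, 3095 and 2991 CPM at 52 h. The largest rises included Bop1, a factor of the large subunit (30.8 ± 15.6 CPM at 55 h and 5.48 ± 2.06 CPM at 52 h, 2.19). The helicases Ddx10 (62.6 ± 23.4 CPM at 55 h and 12.3 ± 0.893 CPM at 52 h, 2.19) and Ddx21 (96.5 ± 25 CPM at 55 h and 21.5 ± 4.52 CPM at 52 h, 2.10) were close to it. Ubtf and Rrn3, which start transcription of ribosomal RNA, averaged 98.0 ± 21.2 CPM at 55 h and 25.8 ± 7.30 CPM at 52 h (1.90) and 823 ± 288 CPM at 55 h and 269.5 ± 29.6 CPM at 52 h (1.56). Npm1, a nucleolar chaperone, averaged 928 ± 146 CPM at 55 h and 405 ± 18.2 CPM at 52 h (1.18). Pes1 was the member not called (23.7 ± 7.48 CPM at 55 h and 22.4 ± 3.60 CPM at 52 h, 0.045, adjusted p = 0.85).

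Most cytosolic ribosomal proteins rose as well. Of 51 members tested, 48 rose, 1 fell and 2 did not pass the test, with a median of 1.27 and a summed level of 5366, 6192, 4063 and 5217 CPM at 55 h, against 2428, 2436, 2359.5 and 2301 CPM at 52 h. Rpl38 averaged 20.2 ± 7.05 CPM at 55 h and 2.69 ± 0.623 CPM at 52 h (2.46). Rpl17 was the member that fell (11.3 ± 4.36 CPM at 55 h and 37.4 ± 6.37 CPM at 52 h, -1.70). Ribosomal proteins have many processed copies in the genome, so their counts are uncertain. Of 20 cytosolic aminoacyl-tRNA synthetases, which load amino acids onto tRNA, 15 rose and 2 fell. Rars averaged 199 ± 67.3 CPM at 55 h and 47.3 ± 11.7 CPM at 52 h (2.02) and Farsb averaged 68.4 ± 6.62 CPM at 55 h and 176 ± 22.3 CPM at 52 h (-1.35).

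MYC targets outside the nucleolus rose less uniformly. Of 33 members tested, 22 rose, 2 fell and 9 did not pass the test, with a median of 0.96. Nme1, a kinase that balances nucleoside triphosphates, stood at 141, 204, 115 and 146 CPM at 55 h, against 17.6, 19.1, 26.6 and 18 CPM at 52 h (2.83 ± 0.19 SE, adjusted p = 1.6e-14). Impdh2, the rate-limiting enzyme of guanine nucleotide synthesis, stood at 137, 153, 70.1 and 93.8 CPM at 55 h, against 22.1, 16.2, 24.1 and 24.9 CPM at 52 h (2.28 ± 0.20 SE, adjusted p = 1.1e-11). The groups lay well apart in both genes. Cad, which starts pyrimidine synthesis, averaged 45.1 ± 19.0 CPM at 55 h and 8.32 ± 2.71 CPM at 52 h (2.26), and Odc1, which starts polyamine synthesis, averaged 481 ± 96.3 CPM at 55 h and 169.6 ± 4.34 CPM at 52 h (1.47). Hspe1, a mitochondrial chaperone, was 1 of the 2 that fell (20.4 ± 2.33 CPM at 55 h and 41.7 ± 4.22 CPM at 52 h, -0.998). Across nucleotide synthesis as a whole, of 28 members tested, 19 rose, 6 fell and 3 did not pass the test. Nme1 and Impdh2 are counted in this list too. Its falling members included Rrm2b, a ribonucleotide reductase subunit induced by p53 (81.4 ± 15.5 CPM at 55 h and 228 ± 20.0 CPM at 52 h, -1.49), and Dut, which breaks down dUTP (192 ± 43.8 CPM at 55 h and 394 ± 8.33 CPM at 52 h, -1.07).

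The letters CACGTG, the E-box that MYC with MAX and also the lysosomal regulators of the TFEB family are known to bind, were searched in the 250 bases before the RefSeq start of each gene (GRCm38.p6). The letters read the same on both strands. They stood in 6.02% of all 32851 windows and in 6.86% of the 27025 genes with a window. Of the tested genes with a window they stood in 11.7% of those that rose (530 of 4520), 7.57% of those that fell (257 of 3397) and 8.17% of those not called (397 of 4857). Of the MYC targets outside the nucleolus they stood in 11 of 30, among them Nme1, Impdh2 and Cdk4, which rose, and Ldha and Slc16a1, which were not called. In the ribosome biogenesis list they stood in 2 of 31, and in the autophagy and lysosome list in 6 of 22. The windows of the MYC targets Nme1 (chr11:93968273-93968522, minus strand) and Impdh2 (chr9:108560186-108560435, plus strand), and of the lysosomal genes Ctsd (chr7:142387828-142388077, minus strand) and Lamp1 (chr8:13158911-13159160, plus strand), are shown because these 4 genes rose and carry the letters, given here in capitals. The windows read 5′ to 3′ on the gene's strand, and the last base lies next to the start.
Nme1: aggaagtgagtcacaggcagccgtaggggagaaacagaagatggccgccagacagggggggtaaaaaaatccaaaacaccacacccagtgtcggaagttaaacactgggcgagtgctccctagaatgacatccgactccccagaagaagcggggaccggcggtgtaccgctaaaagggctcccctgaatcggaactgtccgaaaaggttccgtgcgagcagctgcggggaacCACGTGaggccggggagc
Impdh2: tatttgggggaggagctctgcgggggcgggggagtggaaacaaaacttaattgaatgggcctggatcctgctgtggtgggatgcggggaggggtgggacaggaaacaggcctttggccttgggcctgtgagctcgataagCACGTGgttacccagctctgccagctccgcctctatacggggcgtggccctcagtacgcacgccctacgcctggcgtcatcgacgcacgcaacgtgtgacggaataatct
Ctsd: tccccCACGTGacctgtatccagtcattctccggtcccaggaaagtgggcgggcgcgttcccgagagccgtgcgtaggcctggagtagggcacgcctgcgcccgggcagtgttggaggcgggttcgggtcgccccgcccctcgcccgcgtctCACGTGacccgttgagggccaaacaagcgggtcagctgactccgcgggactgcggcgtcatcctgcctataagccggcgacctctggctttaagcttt
Lamp1: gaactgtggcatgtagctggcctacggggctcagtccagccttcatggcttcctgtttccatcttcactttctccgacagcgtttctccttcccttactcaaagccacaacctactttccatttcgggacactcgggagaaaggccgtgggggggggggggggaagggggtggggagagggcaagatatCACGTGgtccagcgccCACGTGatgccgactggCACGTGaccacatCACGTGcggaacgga
Ctsd holds the letters at 2 places and Lamp1 at 4, while Nme1 and Impdh2 hold them once. A match of letters does not show that a factor was bound.

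Genes for the use of pyruvate, lactate and glucose moved in both directions. Of 24 members tested, 5 rose, 10 fell and 9 did not pass the test, where 33.7% of all genes tested rose and 26.1% fell. Pdk4 was the member of the list that did not pass the filter on low values. Among carriers, Slc2a3, a high-affinity glucose carrier, stood at 84.2, 131, 152 and 106 CPM at 55 h, against 26.0, 23.1, 34.1 and 26.6 CPM at 52 h (2.05 ± 0.26 SE, adjusted p = 3e-08). Slc2a1, the other main glucose carrier of the embryo, stood at 3.25, 0.107, 2.45 and 2.03 CPM at 55 h, against 13.4, 18.1, 10.7 and 10.03 CPM at 52 h (-2.37 ± 0.31 SE, adjusted p = 5.2e-08). The first was higher and the second lower in all 55 h libraries. Slc16a1 and Slc16a3, carriers of lactate and pyruvate, were not called (48.5 ± 19.8 CPM at 55 h and 40.3 ± 4.97 CPM at 52 h, and 0.564 ± 0.785 CPM at 55 h and 0.667 ± 0.349 CPM at 52 h). Slc16a7 was listed at 0 in all 55 h libraries and averaged 1.04 ± 0.415 CPM at 52 h. Mpc1 and Mpc2 together form the carrier that brings pyruvate into mitochondria. Mpc2 rose (195 ± 21.4 CPM at 55 h and 99.3 ± 7.68 CPM at 52 h, 0.96). Mpc1 was called lower (351 ± 20.0 CPM at 55 h and 449 ± 29.1 CPM at 52 h, -0.36, or -0.55 with median-ratio scaling), but not without 52 h library 1, 3 or 4 or without 55 h library 1, 3 or 4 (adjusted p = 0.059 to 0.10). Nor was Mpc1 called without the filter on low values (adjusted p = 0.065) or with replicate number as a block (adjusted p = 0.0815).

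Ldhb, the lactate dehydrogenase subunit of oocytes, stood at 99.1, 174, 194 and 198 CPM at 55 h, against 903, 840.2, 763 and 574 CPM at 52 h (-2.23 ± 0.19 SE, adjusted p = 1.1e-11). Every 55 h library was below every 52 h library. Ldha, the other subunit, was not called (48.9 ± 26.4 CPM at 55 h and 35.5 ± 9.60 CPM at 52 h, 0.33, adjusted p = 0.31). Me1, which makes pyruvate from malate in the cytosol, averaged 32.2 ± 7.68 CPM at 55 h and 167 ± 12.0 CPM at 52 h (-2.37), and the mitochondrial Me2 was not called (77.1 ± 26.0 CPM at 55 h and 71.2 ± 10.5 CPM at 52 h, 0.062). Pcx and Pck2, which lead from pyruvate towards glucose, were not called (5.08 ± 2.12 CPM at 55 h and 4.23 ± 0.508 CPM at 52 h, and 3.49 ± 2.44 CPM at 55 h and 5.44 ± 2.88 CPM at 52 h). Nor was the glucose carrier Slc2a8 (5.64 ± 1.54 CPM at 55 h and 5.94 ± 1.78 CPM at 52 h).

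Pyruvate dehydrogenase, which turns pyruvate into acetyl-CoA, showed opposite moves of its subunits. The E1 subunits Pdha1 and Pdhb rose (65.7 ± 16.3 CPM at 55 h and 31.7 ± 5.56 CPM at 52 h, 1.01, and 299 ± 81.2 CPM at 55 h and 133 ± 21.3 CPM at 52 h, 1.12). Dlat, the E2 subunit, and Pdhx fell (10.3 ± 1.41 CPM at 55 h and 44.9 ± 2.23 CPM at 52 h, -2.03, and 19.7 ± 5.77 CPM at 55 h and 66.6 ± 15.9 CPM at 52 h, -1.72). Dld was not called (26.2 ± 8.16 CPM at 55 h and 24.5 ± 4.83 CPM at 52 h, 0.066). The phosphatase Pdp2, which switches the enzyme on, stood at 3246, 1202, 2089 and 1278 CPM at 55 h, against 453, 355, 281 and 316 CPM at 52 h (2.37 ± 0.27 SE, adjusted p = 5e-09). Its relative Pdp1 fell (17.7 ± 14.4 CPM at 55 h and 33.6 ± 6.70 CPM at 52 h, -1.13, with overlapping groups). The kinases that switch it off gave 53.9 ± 26.6 CPM at 55 h and 126 ± 7.17 CPM at 52 h for Pdk3 (-1.32) and 1.61 ± 1.25 CPM at 55 h and 3.25 ± 1.26 CPM at 52 h for Pdk2 (-0.83), both called lower. Pdk1 was not called (24.3 ± 8.68 CPM at 55 h and 29.2 ± 3.81 CPM at 52 h, -0.31). The groups overlapped for Pdk2, and its call was lost with quantile scaling, with a pseudocount of 0.1 and without 52 h library 2 or 3 or 55 h library 4 (adjusted p = 0.053 to 0.20). That call was also lost with only the compared groups in the fit (adjusted p = 0.13) and with replicate number as a block (adjusted p = 0.093). The change of Pdk2 was -1.67 with that pseudocount and -0.42 without 55 h library 4. Pdp2 was highest in library 1 and lowest in libraries 2 and 4.

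In glycolysis and the pentose phosphate pathway, of 25 members tested, 11 rose, 3 fell and 11 did not pass the test. The oxidative branch divided. G6pdx, its first enzyme, fell (72.7 ± 16.5 CPM at 55 h and 292 ± 12.1 CPM at 52 h, -2.02). Pgd, its next NADPH-making enzyme, rose (55.4 ± 17.1 CPM at 55 h and 15.2 ± 2.47 CPM at 52 h, 1.76), as did Taldo1 (149 ± 23.9 CPM at 55 h and 44.5 ± 10.7 CPM at 52 h, 1.74). Fbp1, an enzyme of glucose synthesis, fell (1.28 ± 0.9 CPM at 55 h and 12.0 ± 1.97 CPM at 52 h, -2.61). In the tricarboxylic acid cycle, of 25 members tested, 11 rose, 8 fell and 6 did not pass the test. The shares over all genes tested were 33.7% higher and 26.1% lower. Cs, the citrate synthase, fell (107 ± 28.3 CPM at 55 h and 311 ± 30.9 CPM at 52 h, -1.57), as did Suclg2 (10.8 ± 4.24 CPM at 55 h and 83.1 ± 9.38 CPM at 52 h, -2.89). Suclg1, its partner in succinyl-CoA ligase, rose (31.0 ± 9.30 CPM at 55 h and 8.46 ± 1.51 CPM at 52 h, 1.72). Idh3b and Mdh2 rose (52.3 ± 18.2 CPM at 55 h and 8.60 ± 1.70 CPM at 52 h, 2.42, and 830.3 ± 111 CPM at 55 h and 259 ± 16.9 CPM at 52 h, 1.67), while Idh3a fell (39.4 ± 4.4 CPM at 55 h and 72.1 ± 16.6 CPM at 52 h, -0.83).

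Nuclear genes of the respiratory chain and ATP synthase rose as a group. Of 69 members tested, 47 rose, 5 fell and 17 did not pass the test, with a median of 0.97. Ndufb7, of complex I, had the largest change (41.0 ± 17.3 CPM at 55 h and 4.32 ± 1.28 CPM at 52 h, 2.91), then Uqcrc1, of complex III (106 ± 34.0 CPM at 55 h and 21.1 ± 4.25 CPM at 52 h, 2.24). Cox4i1, of complex IV, averaged 278 ± 67.9 CPM at 55 h and 77.7 ± 14.1 CPM at 52 h (1.81). Ndufa4 and Cox8a were among the 5 that fell (42.6 ± 16.0 CPM at 55 h and 147 ± 34.6 CPM at 52 h, -1.82, and 272 ± 47.9 CPM at 55 h and 555 ± 55.2 CPM at 52 h, -1.04). Of the 13 mitochondrially encoded transcripts, 1 rose and 2 fell, with a median of 0.024, and their summed level was 90441, 46538, 96414 and 73193 CPM at 55 h, against 93271, 83451, 57076 and 67968 CPM at 52 h. That sum overlapped between the groups, and 55 h library 2 was the lowest of the 8. With quantile scaling 5 of the 13 were called higher, and with median-ratio scaling 4 were called lower. Among all 20737 genes tested, 6454 were called higher with quantile scaling and 5906 lower with median-ratio scaling, which are similar shares.

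Serine synthesis rose at its first step. Phgdh, which commits a glycolytic intermediate to serine, stood at 113, 81.1, 33.9 and 46.2 CPM at 55 h, against 11, 6.39, 8.89 and 7.44 CPM at 52 h (2.76 ± 0.24 SE, adjusted p = 8.3e-12). Psat1, the next enzyme, averaged 355 ± 72.7 CPM at 55 h and 95.2 ± 19.9 CPM at 52 h (1.89). Mthfd2, which passes the one-carbon unit on in mitochondria, fell (81.5 ± 16.1 CPM at 55 h and 356 ± 51.0 CPM at 52 h, -2.12); of the list, 6 of 12 rose and 3 fell. Of the ATF4 and unfolded protein stress list, 13 of 28 rose and 5 fell. Atf4, its leading factor, stood at 138, 137, 139.5 and 167 CPM at 55 h, against 70.5, 80.6, 68.7 and 68.6 CPM at 52 h (1.001 ± 0.13 SE, adjusted p = 7.1e-08). Asns, which makes asparagine, averaged 17.9 ± 13.0 CPM at 55 h and 3.35 ± 0.972 CPM at 52 h (1.80, with overlapping groups), and the chaperone Hspa5 averaged 832 ± 124 CPM at 55 h and 246 ± 21.3 CPM at 52 h (1.74). Fgf21, a stress hormone, and the cystine carrier Slc7a11 fell (1.83 ± 2.34 CPM at 55 h and 9.18 ± 0.947 CPM at 52 h, -2.26, or -3.96 with a pseudocount of 0.1, and 5.08 ± 1.78 CPM at 55 h and 27.3 ± 8.42 CPM at 52 h, -2.23).

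Of 20 p53 targets and damage response genes, 12 rose and 4 fell. Gadd45b averaged 52.5 ± 14 CPM at 55 h and 12.8 ± 4.52 CPM at 52 h (1.98) and the pore-forming death protein Bax averaged 20.5 ± 6.08 CPM at 55 h and 5.20 ± 1.53 CPM at 52 h (1.78). Cdkn1a, the p21 cell cycle inhibitor, was not called (146 ± 23.1 CPM at 55 h and 116 ± 15.9 CPM at 52 h, 0.33, adjusted p = 0.074). The p53 inhibitor Mdm4 fell (3015 ± 396 CPM at 55 h and 5593 ± 402 CPM at 52 h, -0.90), a call lost with quantile scaling (-0.30, adjusted p = 0.079). For antioxidant defence, of 26 members tested, 15 rose, 3 fell and 8 did not pass the test. Gclc, which limits glutathione synthesis, rose (18.2 ± 6.90 CPM at 55 h and 4.95 ± 1.86 CPM at 52 h, 1.65), and Prdx2, a peroxidase, fell (445 ± 56.9 CPM at 55 h and 1435 ± 128 CPM at 52 h, -1.69). Nfe2l2, the factor NRF2, was not called (39.4 ± 8.85 CPM at 55 h and 41.3 ± 2.82 CPM at 52 h, -0.092).

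Genes of protein turnover rose in most members. Among proteasome subunits, of 31 members tested, 29 rose and 2 did not pass the test, with a median of 1.27 and a summed level of 4861, 6157, 3941 and 4674 CPM at 55 h, against 1801, 1969, 1927 and 1909 CPM at 52 h. The lid subunits Psmd13 and Psmd14 led (49.0 ± 8.25 CPM at 55 h and 6.89 ± 3.04 CPM at 52 h, 2.72, and 351 ± 55.6 CPM at 55 h and 65.8 ± 6.56 CPM at 52 h, 2.39), and Psmd1 and Psmd3 were not called (0.18 and -0.37). For autophagy and lysosome, of 30 members tested, 21 rose, 2 fell and 7 did not pass the test, with a median of 1.32 and a sum of 7652, 10253, 6733 and 8301 CPM at 55 h, against 3098, 2812, 3289.9 and 3053 CPM at 52 h. Ctsd, a lysosomal protease whose window is printed above, stood at 109, 144, 164 and 124 CPM at 55 h, against 29.9, 11.5, 24.7 and 19.5 CPM at 52 h (2.67 ± 0.21 SE, adjusted p = 1.9e-12). Lamp1, a lysosomal membrane protein, averaged 164 ± 46.9 CPM at 55 h and 49.8 ± 6.86 CPM at 52 h (1.67), and Atg3, which attaches lipid to autophagy proteins, averaged 281 ± 43.6 CPM at 55 h and 46.1 ± 14.3 CPM at 52 h (2.63). Atg5 fell (138 ± 21.5 CPM at 55 h and 277 ± 13.9 CPM at 52 h, -1.02), as did Mitf, a factor of the TFEB family (1.86 ± 1.76 CPM at 55 h and 6.74 ± 3.79 CPM at 52 h, -1.54, or -2.45 with a pseudocount of 0.1, with overlapping groups). Of 26 chaperones 20 rose and 3 fell; the chaperonin subunit Cct2 rose (133 ± 6.08 CPM at 55 h and 36.0 ± 8.52 CPM at 52 h, 1.88) and Dnajb1, a partner of HSP70, fell (59.9 ± 15.7 CPM at 55 h and 194 ± 24.5 CPM at 52 h, -1.70).

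Transcription and splicing genes rose in most members. For RNA polymerase II and its factors, of 33 members tested, 21 rose, 4 fell and 8 did not pass the test. Polr2a, the largest subunit of the polymerase, averaged 93.5 ± 19.1 CPM at 55 h and 26.0 ± 5.92 CPM at 52 h (1.81). Tbpl2, the oocyte form of the TATA-binding protein, fell (1.51 ± 1.42 CPM at 55 h and 21.3 ± 0.365 CPM at 52 h, -3.32). The somatic form Tbp rose (152 ± 39.2 CPM at 55 h and 102 ± 20.2 CPM at 52 h, 0.55, and 0.36 with median-ratio scaling, with overlapping groups). Of the spliceosome core 21 of 32 rose and 3 fell, and of nuclear pore and transport genes 20 of 31 rose and 6 fell. Kpna7, the importin of the oocyte, fell (40.6 ± 14.8 CPM at 55 h and 141 ± 27.3 CPM at 52 h, -1.83) and Kpna2 rose (376 ± 35.1 CPM at 55 h and 136 ± 10.3 CPM at 52 h, 1.46).

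Among genes of entry into and passage through mitosis, of 44 members tested, 20 rose, 10 fell and 14 did not pass the test. The shares over all genes tested were 33.7% higher and 26.1% lower. Cdc20 and Bub3, of the checkpoint that holds chromosomes until all are attached, rose (306 ± 97.5 CPM at 55 h and 85.2 ± 14.6 CPM at 52 h, 1.80, and 182 ± 50.7 CPM at 55 h and 41.7 ± 9.06 CPM at 52 h, 2.07). The kinase Plk1 rose too (214 ± 104 CPM at 55 h and 87.8 ± 17.0 CPM at 52 h, 1.17). Mad2l1 and Nuf2, of the same checkpoint and of the kinetochore, fell (334 ± 16.4 CPM at 55 h and 998 ± 73.3 CPM at 52 h, -1.57, and 41.6 ± 8.64 CPM at 55 h and 227 ± 27.4 CPM at 52 h, -2.44). Among genes of DNA replication, of 42 members tested, 25 rose, 6 fell and 11 did not pass the test. The cyclin genes Ccnd2 and Ccnd1 rose (19.6 ± 6.92 CPM at 55 h and 3.74 ± 3.02 CPM at 52 h, 2.33, and 40.1 ± 15.9 CPM at 55 h and 10.2 ± 2.87 CPM at 52 h, 1.83), and Ccne2 fell (70.6 ± 16.0 CPM at 55 h and 163 ± 39.0 CPM at 52 h, -1.20).

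Chromatin and DNA methylation factors gave 23 rises and 10 falls among 44. Tet1, an enzyme that oxidises methylated cytosine, rose (107 ± 14.9 CPM at 55 h and 33.3 ± 5.32 CPM at 52 h, 1.66), and Tet3, its form in the oocyte and zygote, fell (49.5 ± 6.95 CPM at 55 h and 149 ± 9.30 CPM at 52 h, -1.58). Kdm5b, which removes methyl groups from lysine 4 of histone H3, rose (421 ± 167 CPM at 55 h and 161 ± 18.9 CPM at 52 h, 1.31). H3f3b, a gene of the histone variant H3.3, fell (1941 ± 327 CPM at 55 h and 4857 ± 499.7 CPM at 52 h, -1.33, and -0.73 with quantile scaling). Of 15 core histones and variants 3 rose and 6 fell. The 6 include H1foo, the linker histone also named above among maternal transcripts.

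Of 27 lineage and pluripotency regulators, 11 rose and 5 fell. Sox15 stood at 499, 348, 348 and 348 CPM at 55 h, against 58.3, 53.3, 64.6 and 63.4 CPM at 52 h (2.65 ± 0.17 SE, adjusted p = 7.1e-15). Tead4, which is needed for trophectoderm, and Tfap2c, another trophectoderm factor, rose (24.3 ± 8.48 CPM at 55 h and 7.52 ± 2.23 CPM at 52 h, 1.54, and 58.6 ± 22.7 CPM at 55 h and 15.4 ± 3.29 CPM at 52 h, 1.80). Pou5f1 fell (8.68 ± 1.17 CPM at 55 h and 19.5 ± 4.14 CPM at 52 h, -1.07), and Nanog was not called (15 ± 2.20 CPM at 55 h and 12.6 ± 5.23 CPM at 52 h, 0.30). Of adhesion, polarity and compaction genes, 9 of 30 rose and 8 fell, close to the shares over all genes tested (33.7% and 26.1%). F11r, a junction protein, rose (131 ± 36.1 CPM at 55 h and 44.5 ± 8.27 CPM at 52 h, 1.51). Pard3, a polarity protein, fell (266 ± 90.5 CPM at 55 h and 486 ± 24.8 CPM at 52 h, -0.95). Of amino acid carriers 10 of 23 rose and 2 fell, with Slc1a1, a glutamate carrier, at 58.5 ± 23.3 CPM at 55 h and 21.5 ± 4.42 CPM at 52 h (1.31).

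**Figure D4:**
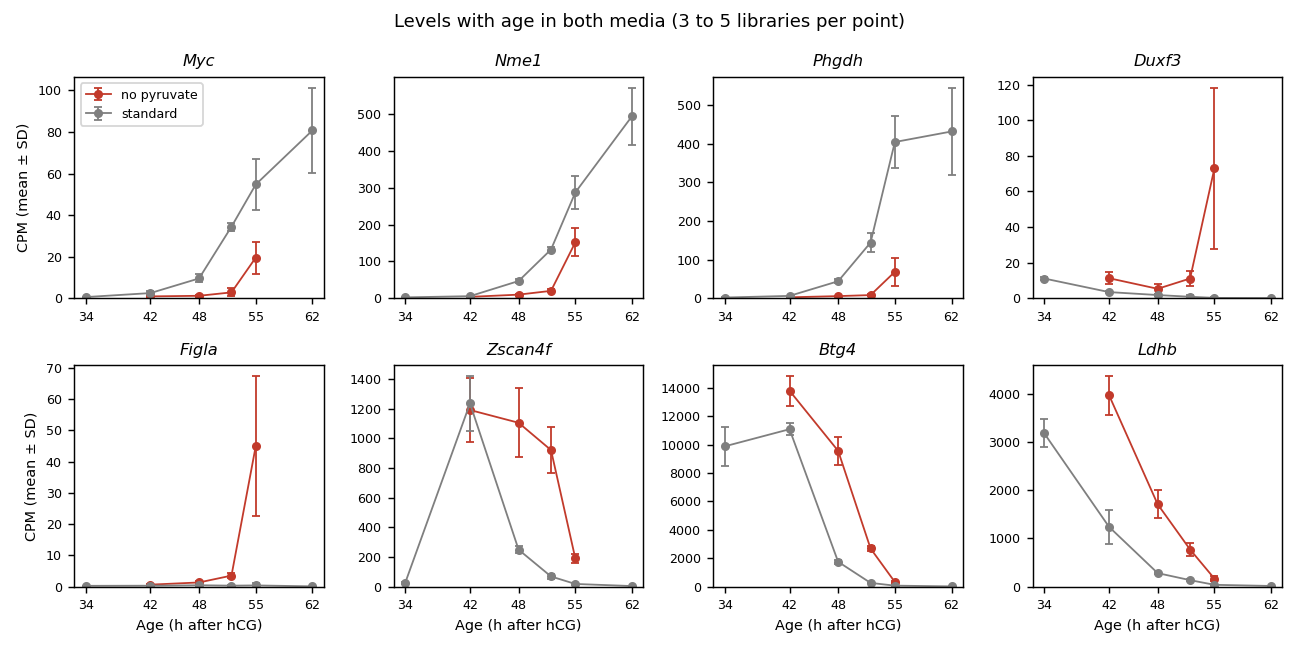
CPM (vertical axes, mean ± SD over 3 to 5 libraries) by age in hours after hCG for 8 genes, without pyruvate in red and in standard medium in grey. At 55 h the red means of Myc, Nme1 and Phgdh are below the grey ones and those of Duxf3 and Figla are far above them.

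The 3 hours without pyruvate were set against the same 3 hours in standard medium, in which Very late 2-cell embryos were followed by Early 4-cell embryos. They were also set against the step from Late to Very late 2-cell embryos, which ends at the mean stage position nearest to that of the 55 h libraries. These steps differ in length on that scale: 0.316 without pyruvate (0.735 at 55 h, 0.419 at 52 h), 0.141 for standard embryos from 52 to 55 h (0.916 at 55 h, 0.775 at 52 h) and 0.158 from 48 to 52 h (0.775 at 52 h, 0.617 at 48 h). In standard medium, 38.3% of the genes were called between 52 and 55 h, 10.9% higher and 27.4% lower, and 27.5% between 48 and 52 h, 14.1% higher and 13.4% lower. The step without pyruvate differed from the standard step of the same hours in 42.7% of genes, of which 72.7% were higher in the step without pyruvate. That split depends on scaling: it was 53.1% with median-ratio scaling, 51.5% with quantile scaling and 51.6% with the length trend removed, and the median of the difference over all genes, 0.35, was then between -0.010 and 0.043. From the step between 48 and 52 h it differed in 30.7% of genes, 56.3% of them higher, and this share was 45.6% with median-ratio scaling.

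By list, maternal transcripts had medians of -1.36 without pyruvate, -1.42 in standard embryos from 52 to 55 h and -1.37 from 48 to 52 h. With median-ratio scaling they were -1.54, -1.16 and -1.34, and with quantile scaling -1.67, -1.14 and -1.25, in that order. The difference from the step of the same hours was called lower in 15 of 53 maternal transcripts and higher in 9, and lower in 20, 25 and 19 with median-ratio scaling, quantile scaling and the length trend removed. Against the step from 48 to 52 h it was called lower in 18 and higher in 3, where 13.4% of all genes tested were lower and 17.3% higher. Burst genes had -0.031 without pyruvate, against -1.15 and -0.86 in the standard steps. The difference from the step of the same hours was called higher in 25 of 52 burst genes and lower in 4, and with median-ratio scaling in 17 and 6. For mitochondrially encoded transcripts the medians were 0.024 without pyruvate, against -1.15 and -1.05. With quantile scaling these were 0.15, against -1.67 and -0.36. In 12 of 13 the difference from the step of the same hours was called higher, and in 8, 12 and 9 with median-ratio scaling, quantile scaling and the length trend removed. Ribosome biogenesis genes had 1.38 without pyruvate, against 0.23 and 0.46, with that difference called higher in 31 of 36 and, over the 3 scalings, in 18 to 27. For autophagy and lysosome the medians were 1.32, against 0.22 and 0.39, with 21 of 30 higher and 15 to 19 over the scalings. Over all genes tested, 31.1% were called higher and 11.6% lower in the difference from the step of the same hours. These shares are without rescaling. With median-ratio scaling, quantile scaling and the length trend removed, 3838, 4050 and 4283 of 20737 genes were called higher. In the same order, 3385, 3818 and 4020 were called lower, and the rescaled list counts are to be read beside these.

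**Figure D5:**
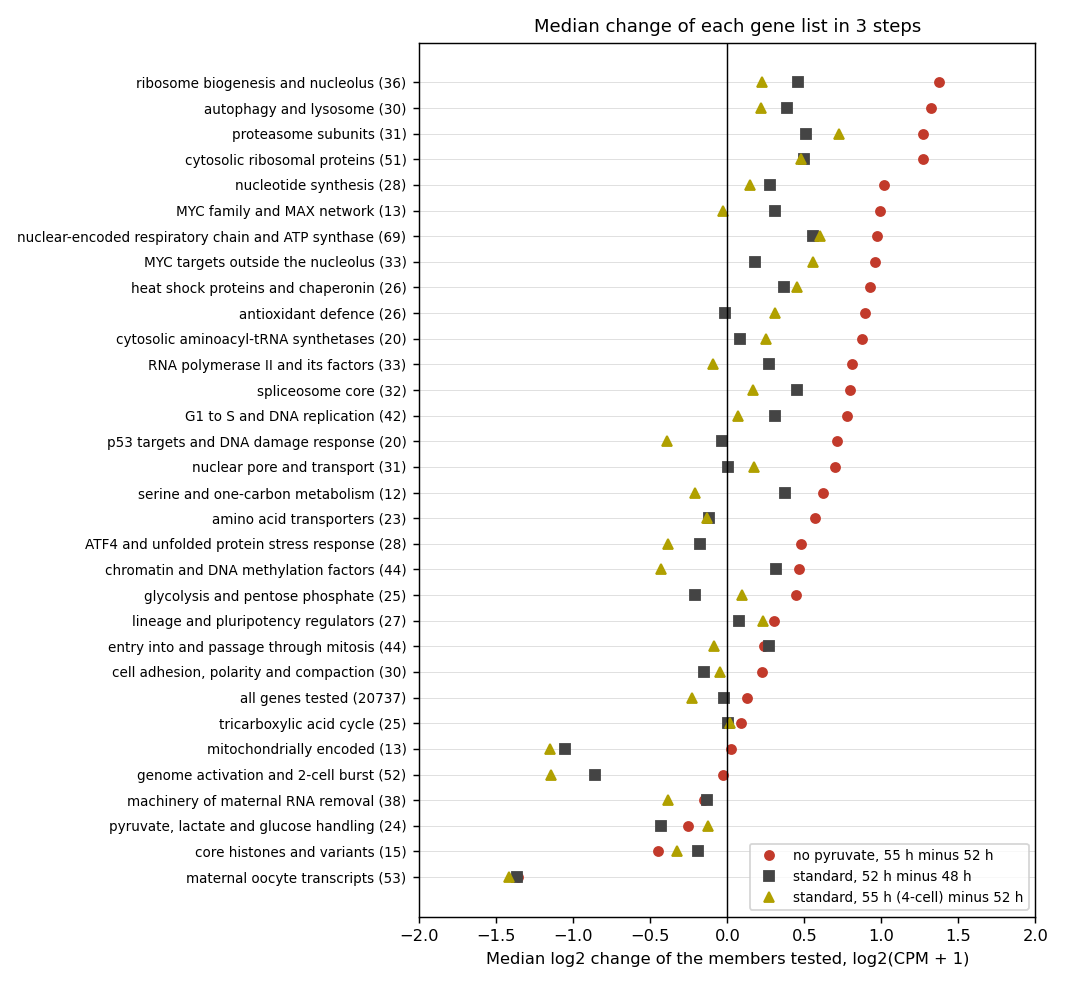
Median log2 change of the tested members of each gene list (rows) in the step without pyruvate from 52 to 55 h (red circles), the standard step from 48 to 52 h (dark squares) and the standard step from 52 to 55 h (yellow triangles). Without rescaling, maternal transcripts have medians of -1.42 to -1.36 in the 3 steps, and burst genes and mitochondrially encoded transcripts are near 0 without pyruvate and at -1.15 to -0.86 in both standard steps; other scalings move these medians.

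Single genes were named here only if the 55 h and 52 h libraries without pyruvate did not overlap. They also needed a mean of 20 CPM or more in a compared group. Genes whose libraries without pyruvate overlapped could not be named, however much they changed in standard medium. Among the genes left, the largest differences between the step without pyruvate and the standard step of the same hours were as follows. Hes1, a repressor driven by Notch signals, averaged 12.5 ± 5.84 CPM at 55 h and 28.3 ± 2.50 CPM at 52 h without pyruvate, and 35.5 ± 5.54 CPM in Early 4-cell and 1.78 ± 0.977 CPM in Very late 2-cell embryos (difference of log2 changes -4.98 ± 0.43 SE, adjusted p = 2.7e-10). Mtap, which recycles methylthioadenosine, averaged 4.69 ± 2.80 CPM at 55 h and 47.9 ± 10.6 CPM at 52 h without pyruvate, and 20.1 ± 5.26 CPM and 6.42 ± 0.765 CPM in the standard groups (-4.70 ± 0.34 SE, adjusted p = 8.1e-12). Rnf5, a ubiquitin ligase of the endoplasmic reticulum, averaged 5.41 ± 2.93 CPM at 55 h and 45.9 ± 5.59 CPM at 52 h without pyruvate, and 24.4 ± 8.79 CPM and 7.56 ± 1.18 CPM in the standard groups (-4.47 ± 0.34 SE, adjusted p = 2.2e-11). These 3 fell without pyruvate and rose in standard medium over the same hours. Rabl2 and Stambp differed in the same direction (-4.03 and -3.87). On the other side, Calml4, a calmodulin-like gene, averaged 116 ± 30.0 CPM at 55 h and 17.6 ± 2.97 CPM at 52 h without pyruvate, and 8.84 ± 6.54 CPM and 23.8 ± 4.36 CPM in the standard groups (4.17 ± 0.40 SE, adjusted p = 1.3e-09). Zfy2, Hba-a1, Hba-a2 and Tmem150c differed by 4.35, 3.96, 3.95 and 3.90, in that order. All were called higher at 55 h than at 52 h without pyruvate, where the naming rule required no overlap.

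The same naming rule was used against the standard step from 48 to 52 h. The largest positive differences were then those of Klf6 (3.95 ± 0.49 SE, adjusted p = 4.6e-07), Dusp3 (3.81), Tacr3 (3.42), Figla (3.31) and Duxf3 (3.11). Klf6, a zinc-finger factor, averaged 37.4 ± 21.5 CPM at 55 h and 5.22 ± 0.510 CPM at 52 h without pyruvate, and 1.81 ± 0.870 CPM in Very late and 6.89 ± 1.78 CPM in Late 2-cell embryos. Tacr3, the neurokinin receptor, averaged 57.1 ± 5.90 CPM at 55 h and 18.7 ± 5.07 CPM at 52 h without pyruvate, and 14 ± 5.58 CPM and 49.7 ± 11.3 CPM in the standard groups. It rose in one medium and was lower at the later age in the other. The largest negative differences were those of Pakap (-5.16 ± 0.51 SE, adjusted p = 7.6e-09), Iglc3 (-3.89), Lypd3 (-3.84), Eif4e1b (-3.83) and Zbed3 (-3.83). Eif4e1b, the oocyte form of the cap-binding protein, averaged 39.1 ± 18.7 CPM at 55 h and 169 ± 32.7 CPM at 52 h without pyruvate, and 50.4 ± 6.90 CPM and 16.2 ± 7.26 CPM in the standard groups. Pakap, which anchors protein kinase A, averaged 12.9 ± 6.65 CPM at 55 h and 132 ± 18.5 CPM at 52 h without pyruvate, and 47.7 ± 12.9 CPM and 14.5 ± 9.17 CPM in the standard groups. All 5 fell without pyruvate, where the naming rule required libraries that did not overlap.

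The step up to 52 h and the step after it share the 52 h libraries, so their changes are given side by side without a test. Without pyruvate, from 42, 48 and 52 to 55 h, Myc averaged 0.944 ± 0.361 CPM, 1.23 ± 0.442 CPM, 2.87 ± 1.91 CPM and 19.6 ± 7.73 CPM. Over the same ages Zscan4f averaged 1190.3 ± 213 CPM, 1104 ± 231 CPM, 920.2 ± 158 CPM and 189.8 ± 28.5 CPM. Duxf3 averaged 11.3 ± 3.28 CPM, 5.36 ± 2.84 CPM, 11.1 ± 4.06 CPM and 72.9 ± 45.3 CPM. Ldhb had fallen at each age, with 3974 ± 402 CPM, 1709 ± 289.6 CPM, 770.0 ± 143 CPM and 166 ± 46.1 CPM. In standard medium, Myc averaged 9.58 ± 1.93 CPM at 48 h, 34.5 ± 2.01 CPM at 52 h and 54.8 ± 12.2 CPM at 55 h. Zscan4f averaged 249 ± 25.3 CPM, 68.3 ± 15 CPM and 17.8 ± 8.45 CPM. The 55 h level of Myc without pyruvate thus stood between those of Late and Very late 2-cell embryos, and that of Zscan4f between the same groups.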

How the data were processed

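RNA of 85 libraries was measured by Smart-seq2 sequencing, per the labels' protocols. Per the submitters' processing notes, the aligner was STAR 2.6.1d and the genome build mm10; the counting program and annotation are not given in the sources used here. The deposited table holds CPM values with an offset of 0.0001, for 37394 gene names in 91 columns, of which 85 were matched to samples by their descriptions and 6 were not used; 26 names that were only numbers were left out. Depth, inferred by taking the smallest of a library's most frequent values as 1 read, was about 10.2 to 42.6 M reads. Whole reads could not be recovered, so limma, the test planned for CPM, was used on log2(CPM + 1), with genes above 1 CPM in at least 3 of the 34 libraries at 34 to 55 h, a mean trend, and Benjamini-Hochberg adjustment over 20737 genes. Tools were R 4.3.3, limma 3.58.1, Python 3.11.15, numpy 2.4.6 and pandas 2.3.3. Counting error alone amounts to a relative SD of 31.3% for a gene at 1 CPM in the library of least depth. Of 37368 symbols, 36810 matched GENCODE vM21 (GRCm38), from which locations were taken; promoter windows came from RefSeq.

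Members and gene lists were chosen with earlier results of these data known. Genes named included the 15 largest rises and falls with no overlap of libraries and a gene name. These also had a mean of 20 CPM or more at the age with the higher level. Also named were all genes of pyruvate, lactate and glucose handling, the 5 largest interactions in each direction, and members of the lists. A few genes that this rule picks are not reported here. The fit was repeated with a pseudocount of 0.1, without the filter on low values, on the compared groups alone, with replicate number as a block, and with median-ratio or quantile scaling, the trend with gene length removed, or each library left out; stage position was also computed with genes 4-fold apart and on the line to Early 4-cell embryos.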

Additional observations from a re-analysis of the deposited data

Results flagged for a closer look

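Some libraries stood apart from the other 3 of their group for a gene named above. Of 386 group values examined 15 did so, and chance alone marks about 1 in 20. At 55 h, library 1 was higher than the others for Sox15 (499 CPM, others 348 CPM in each case), Ttyh2 (867 CPM, others 369 to 449), Rrn3 (1251 CPM, others 626 to 719) and Dnajb1 (83.4 CPM, others 51.6 to 52.5). Library 3 at 55 h was higher for Ythdf3 (89.0 CPM, others 56.6 to 60.4), Mxd1 (41.2 CPM, others 15.8 to 19.6) and Pdp1 (39.1 CPM, others 8.35 to 12.7), and lower for Odc1 (338 CPM, others 515 to 543). Library 4 at 55 h was higher for Atf4 (167 CPM, others 137 to 139.5). At 52 h, library 1 was higher for Rpl38 (3.62 CPM) and Hes1 (32.0 CPM), library 2 for Atf4 (80.6 CPM), library 3 for Obox5 (2239 CPM) and Prdx2 (1625 CPM), and library 4 for Figla (4.88 CPM). Each of these 14 genes kept its call and direction with any 1 library left out.

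Several genes changed differently without pyruvate than in standard medium, by the interaction term of the limma fit. The term is the log2 change without pyruvate minus that in standard medium. Against the standard step of the same hours, it was 4.35 for Zfy2, 4.17 for Calml4, 3.96 for Hba-a1, 3.95 for Hba-a2 and 3.90 for Tmem150c. It was -4.98 for Hes1, -4.70 for Mtap, -4.47 for Rnf5, -4.03 for Rabl2 and -3.87 for Stambp. Against the standard step from 48 to 52 h, it was 3.95 for Klf6, 3.81 for Dusp3, 3.42 for Tacr3, 3.31 for Figla and 3.11 for Duxf3. It was -5.16 for Pakap, -3.89 for Iglc3, -3.84 for Lypd3, and -3.83 for both Eif4e1b and Zbed3. All 20 stayed past the threshold in the same direction under every alternative.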

How the results depend on the processing

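Between 55 and 52 h without pyruvate, 12409 genes were called, and 9159 to 13653 under the alternatives (11764 to 12249 with 1 library left out); no call changed direction under any of them. With only these 8 libraries in the fit 9219 genes were called, of 18441 tested. Counts for the other comparisons with 1 library left out were 6638 to 7880 for standard embryos from 52 to 55 h (7934 with all libraries), 4307 to 4715 for standard embryos from 48 to 52 h (5696), 8056 to 9084 for the difference from the first of these steps (8853) and 5279 to 6727 for that from the second (6372). The share of higher genes among those called between standard embryos at 55 and 52 h was 28.4%, and 44.4%, 51.5% and 49.7% with median-ratio scaling, quantile scaling and the length trend removed; the cause was not tested. The difference in stage position, 0.316, lay between 0.302 and 0.358 under other settings and between 0.304 and 0.331 with 1 library left out. The fit with a replicate block gave 9159 genes for the main comparison and 5052 for standard embryos from 52 to 55 h, although the shared replicate numbers have no known pairing: deviations of 55 h and 52 h libraries with the same number correlated at -0.024 to 0.035. For stage position the block left the difference at 0.316 and gave an exact p of 0.12, the smallest that sign changes within 4 pairs allow. Of 170 named genes called between 55 and 52 h, 165 kept their call and direction under every alternative; the others were Zp3, Mycn, Mpc1, Pdk2 and Mdm4. Genes near 1 CPM are limited by counting error in libraries of 10.2 M reads, and their log2 changes are understated by the pseudocount.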
